A study of Mus musculus with 12 samples.

Results

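The genes described here encode the proteins of the mitochondrial ribosome, as named by the Mrpl and Mrps symbols of mouse. They were chosen by symbol alone, as every name in both deposited count tables made of Mrpl or Mrps, a number and at most 1 letter from a to c, leaving out any name that holds -ps. This gave 78 of the 25239 genes in each table, 49 named for the large subunit (Mrpl) and 29 for the small subunit (Mrps), and no name was lost to the -ps condition. The series holds 12 RNA-seq libraries of cardiomyocytes from mouse heart, 3 in each of 4 groups. The Chaf1a cko and Chaf1a cko 3M groups carry floxed Chaf1a alleles and Myh6-Cre, a Cre recombinase under a cardiomyocyte promoter. The Ctrl and Ctrl 3M groups carry the floxed alleles without Cre and are named WT in the labels, so Cre and genotype go together. Chaf1a codes for the largest protein of CAF-1 (chromatin assembly factor 1), which places histones on newly copied DNA, and the study's title concerns its perinatal loss and polyploid cardiomyocytes. The meaning of 3M is not spelled out and no age is given. The protocol names cultured cardiomyocytes for all groups. The labels do not tie the libraries to separate animals or cultures, so every p below measures only the spread between libraries, which may be technical. Chaf1a cko was compared with Ctrl in the first set of 6 libraries, and Chaf1a cko 3M with Ctrl 3M in the 3M set.

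Mitochondria translate a small number of membrane proteins of the respiratory chain and ATP synthase from their own genome, on ribosomes of their own. The RNA of these ribosomes is encoded in mitochondrial DNA, while all of their proteins are encoded in the nucleus, made in the cytosol and imported. Many of the proteins descend from bacterial ribosomal proteins and others were added in the mitochondrial lineage. The heart depends on oxidative phosphorylation, and inherited defects of several of these proteins cause cardiomyopathy in humans. Of the 78 genes, 47 have a bacterial counterpart, 30 are specific to mitochondria, and Mrps36 encodes a component of the oxoglutarate dehydrogenase complex in spite of its name. Mrps18a and Mrps30 carry small subunit names but their proteins sit in the large subunit. The groups below follow the names.

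Annotation placed the 78 genes on 17 chromosomes, with a median merged exon length of 1380.5 bases and a range of 478 (Mrpl33) to 7605 (Mrpl17). A protein-coding gene on the opposite strand, starting within 1000 bases, was found for 33 of them (42.3%), against 10.9% of 21951 protein-coding genes. Such pairs may point away from each other or overlap at their starts. Mrps11 and Mrpl46, a small and a large subunit gene, are such neighbours of each other. Their starts lie 412 bases apart and the 2 genes overlap. In the RefSeq promoter table of GRCm38.p6, 69 of the 78 genes had a window of 300 bases, from 250 before the start to 50 after it, or several windows where the table lists several starts. Windows were searched on both strands for CCGGAAG (ETS factors such as GABPA), GCATGCGC (NRF1) and AAGATGGCG (YY1), factors known to act on nuclear genes of mitochondrial proteins. Counting a gene where any of its windows matched, the letters were held by 26 (37.7%), 8 (11.6%) and 8 (11.6%) of the 69 genes, against 9.93%, 3.05% and 1.64% of the 27025 genes in the table. At least 1 of the 3 was held by 36 genes (52.2%), against 13.6% of all genes in the table. The 200 bases around the start (150 before and 50 after) are shown for 4 genes named for the first set and 2 named for the 3M set. Matches to the 3 motifs are in capitals. Mrpl55 and Mrps16 had a smaller p in the first set than Mrpl36 and Mrpl33 but are not shown. Mrpl55 holds none of the 3 motifs and Mrps16 holds the ETS letters. Every window shown holds a match, so the windows shown do not stand for the 69 genes.
Mrpl35 (chr6:71823735-71823934, minus strand): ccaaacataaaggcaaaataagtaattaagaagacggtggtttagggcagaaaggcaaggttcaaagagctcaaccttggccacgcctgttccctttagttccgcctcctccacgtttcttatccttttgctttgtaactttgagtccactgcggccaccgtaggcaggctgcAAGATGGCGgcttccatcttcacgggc
Mrpl22 (chr11:58171514-58171713, plus strand): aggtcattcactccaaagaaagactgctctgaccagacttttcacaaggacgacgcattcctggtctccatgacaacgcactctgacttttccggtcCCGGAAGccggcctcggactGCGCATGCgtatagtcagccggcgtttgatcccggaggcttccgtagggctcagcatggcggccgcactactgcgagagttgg
Mrpl36 (chr13:73330859-73331058, plus strand): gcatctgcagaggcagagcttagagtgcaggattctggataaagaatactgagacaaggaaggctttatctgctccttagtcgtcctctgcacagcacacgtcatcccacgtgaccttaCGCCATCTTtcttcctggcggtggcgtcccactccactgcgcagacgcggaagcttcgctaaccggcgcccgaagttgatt
Mrpl33 (chr5:31613801-31614000, plus strand): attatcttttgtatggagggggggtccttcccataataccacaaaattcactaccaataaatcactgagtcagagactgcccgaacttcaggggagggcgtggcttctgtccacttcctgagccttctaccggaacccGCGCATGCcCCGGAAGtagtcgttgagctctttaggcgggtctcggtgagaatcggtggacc
Mrpl17 (chr7:105811038-105811237, minus strand): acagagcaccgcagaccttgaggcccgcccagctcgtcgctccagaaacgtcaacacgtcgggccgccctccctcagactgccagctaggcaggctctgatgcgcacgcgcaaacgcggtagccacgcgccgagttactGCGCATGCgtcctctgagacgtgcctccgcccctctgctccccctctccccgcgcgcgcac
Mrps23 (chr11:88204238-88204437, plus strand): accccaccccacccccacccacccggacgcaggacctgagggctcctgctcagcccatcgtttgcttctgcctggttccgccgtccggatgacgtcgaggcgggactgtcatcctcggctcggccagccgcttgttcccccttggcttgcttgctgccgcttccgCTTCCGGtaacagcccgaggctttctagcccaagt
Mrpl35 holds the YY1 letters 24 bases into the transcript, counting the start base as 1, while Mrpl36 holds them on the other strand, beginning at base -31. Mrpl22 and Mrpl33 each hold both the ETS and the NRF1 letters, and in Mrpl33 they stand 1 base apart at the start. A match is a description of the sequence and shows no binding.

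The 12 libraries held 10569325 to 20896673 counts, of which the 78 genes took 0.173 to 0.353%. The libraries labelled Chaf1a cko did not have less Chaf1a RNA. Chaf1a was at 29.0, 24.5 and 21.95 CPM (the gene's counts as a share of the library's counts, scaled by TMM factors) in Chaf1a cko and 22.7, 32.3 and 18.8 CPM in Ctrl. It was at 8.34, 5.58 and 5.54 CPM in Chaf1a cko 3M and 1.88, 4.74 and 9.75 CPM in Ctrl 3M, so the groups overlapped in both sets. Cardiomyocyte markers summed to 112025 to 112783 CPM in Chaf1a cko and 115057 to 119593 CPM in Ctrl, and to 50373 to 54714 CPM in Chaf1a cko 3M and 35377 to 43201 CPM in Ctrl 3M, so all 12 libraries carry the RNA of the labelled cell type. The third Chaf1a cko library stood apart, with Lars2 at 3199 CPM against 24.5 to 33.9 CPM in the other 5 of its set, and the third Ctrl 3M library held 3.42% of its counts in Rn45s, against 1.06 to 1.34% in the other 5 of its set. In the first set, 94.8 to 97.6% of 1506 chemoreceptor genes, most of which heart is not known to use, had counts, against 1.13 to 1.59% in the 3M set. The 95th percentile of their levels in the first set was 5.31 CPM, and Mrpl14 averaged no more than that over its 6 libraries. These levels are per gene and were not divided by exon length. The sum of Y-linked genes was 111 to 135 CPM in Chaf1a cko and 50.7 to 60.6 CPM in Ctrl. Xist was at 262 to 325 CPM in Chaf1a cko and 294 to 630 CPM in Ctrl, so RNA of both sexes was present in all 6 libraries. In the 3M set the Y-linked sum was 355 to 398 CPM in Chaf1a cko 3M and 404 to 644 CPM in Ctrl 3M, so the groups were apart in the other direction. Xist was at 0 to 3.97 CPM in Chaf1a cko 3M and 0 to 0.304 CPM in Ctrl 3M, far below the first set. Lars2, Rn45s and the chemoreceptor genes were chosen for mention after their values were seen.

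Levels per kilobase of merged exons differed 39.2-fold among the 78 genes in Ctrl and 34.2-fold in Ctrl 3M. In the first set the highest large subunit genes, ordered by Ctrl, were Mrpl42, at 94.6 ± 11.6 CPM per kb in Chaf1a cko and 88.2 ± 3.25 in Ctrl (SD, n = 3 each here and below), and Mrpl52, at 84.9 ± 11.98 in Chaf1a cko and 80.4 ± 9.49 in Ctrl. Mrpl12, whose bacterial counterpart forms the stalk that recruits translation factors, followed at 72.2 ± 4.02 CPM per kb in Chaf1a cko and 66.1 ± 7.10 in Ctrl. Mrpl18 followed at 63.2 ± 5.69 CPM per kb in Chaf1a cko and 55.5 ± 5.91 in Ctrl. Neighbours in this order had overlapping ranges of mean ± SD in both groups. Among small subunit genes Mrps21 led at 48.4 ± 7.40 CPM per kb in Chaf1a cko and 44.5 ± 1.90 in Ctrl, and Mrps9 was at 43.4 ± 1.01 in Chaf1a cko and 40.7 ± 1.40 in Ctrl. Mrps6 and Mrps34 were next, at 22.4 ± 1.61 and 24.5 ± 5.46 CPM per kb in Chaf1a cko and at 23.7 ± 2.97 and 22.7 ± 2.04 in Ctrl. The lowest large subunit levels in Ctrl were those of Mrpl47 (2.66 ± 0.928 CPM per kb in Chaf1a cko and 2.37 ± 0.355 in Ctrl) and Mrpl35 (5.80 ± 0.400 in Chaf1a cko and 3.14 ± 0.752 in Ctrl). The lowest small subunit levels were those of Mrps17 (2.02 ± 0.126 in Chaf1a cko and 2.25 ± 0.256 in Ctrl) and Mrps16 (3.85 ± 0.297 in Chaf1a cko and 2.55 ± 0.192 in Ctrl). The chemoreceptor level was not computed per kilobase, so the part of background in these lowest levels was not tested.

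In the 3M set the order in Ctrl 3M was led by Mrpl33, at 102 ± 12.04 CPM per kb in Chaf1a cko 3M and 146 ± 56.5 in Ctrl 3M. Mrpl42 was at 117 ± 12.6 CPM per kb in Chaf1a cko 3M and 126 ± 30.4 in Ctrl 3M, which puts the SDs of these leading genes across each other. Mrpl30 was at 91.3 ± 9.03 CPM per kb in Chaf1a cko 3M and 85.1 ± 24.6 in Ctrl 3M, and Mrpl24 at 84.2 ± 10.8 in Chaf1a cko 3M and 79.8 ± 15.2 in Ctrl 3M. Mrps21 again led the small subunit at 114 ± 15.3 CPM per kb in Chaf1a cko 3M and 119 ± 17.0 in Ctrl 3M. Mrps24 (47.3 ± 5.91 CPM per kb in Chaf1a cko 3M and 61.5 ± 3.28 in Ctrl 3M), Mrps34 (55.2 ± 4.48 in Chaf1a cko 3M and 60.3 ± 21.3 in Ctrl 3M) and Mrps23 (76.4 ± 17.0 in Chaf1a cko 3M and 48.9 ± 6.02 in Ctrl 3M) followed. Mrpl1 and Mrpl47 were lowest in the large subunit, at 4.10 ± 1.80 and 5.71 ± 0.949 CPM per kb in Chaf1a cko 3M and at 4.28 ± 1.08 and 4.48 ± 0.338 in Ctrl 3M. Mrps30 and Mrps2 were lowest in the small subunit, at 5.88 ± 0.836 and 8.60 ± 1.10 CPM per kb in Chaf1a cko 3M and at 6.40 ± 1.15 and 7.56 ± 1.85 in Ctrl 3M. Mrpl42, Mrpl47, Mrps21 and Mrps34 met this rule of highest and lowest members in both sets. The tables were deposited and scaled apart, so levels were not compared between sets.

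**Figure D1:**
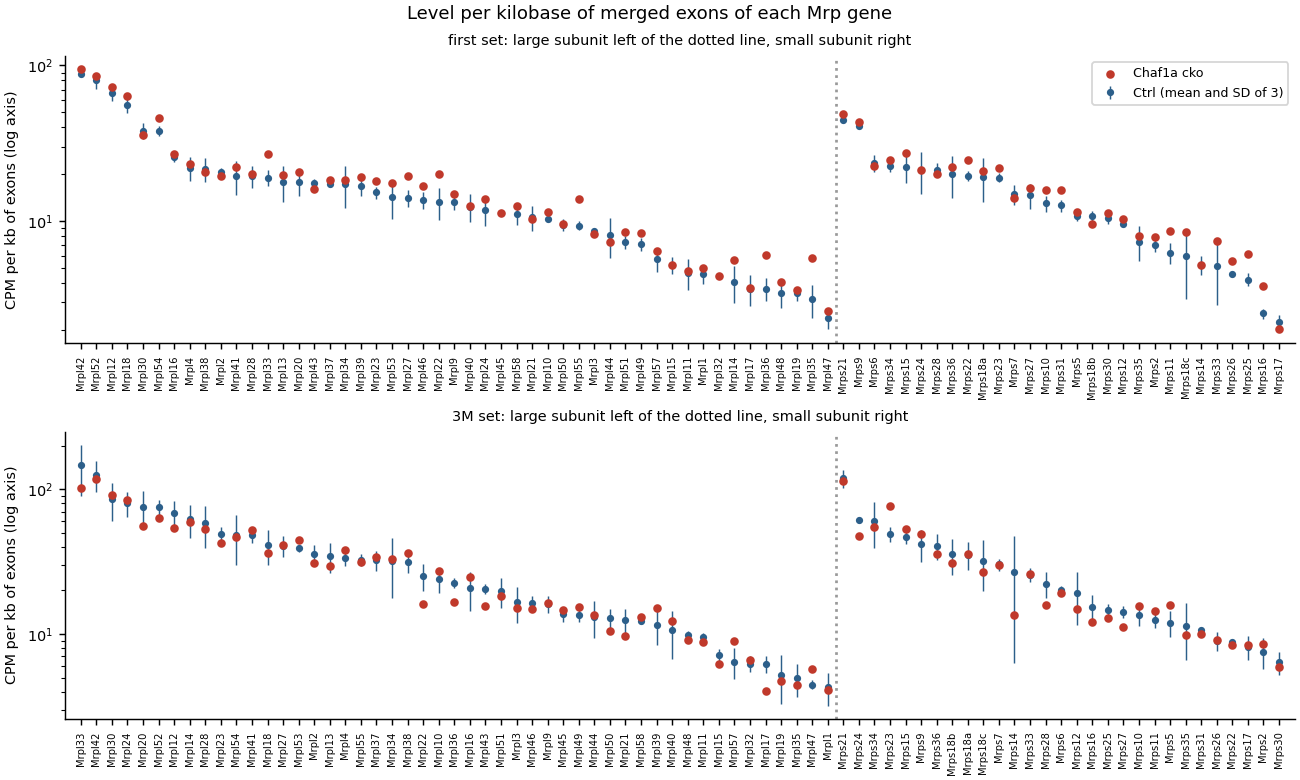
Level of each of the 78 genes in CPM per kb of merged exons (log axis), with the first set above and the 3M set below; red points are means of the Chaf1a cko libraries and blue points with bars are means and SDs of the Ctrl libraries (n = 3 each). Mrpl42 and Mrps21 lie at or near the top of their subunit in both sets, and Mrpl47 at or next to the bottom of the large subunit.

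In the first set the mitochondrial ribosomal protein genes lay slightly higher in Chaf1a cko than in Ctrl as a group. Their summed level was 1948, 1879 and 1892 CPM in the 3 Chaf1a cko libraries and 1745, 1708 and 1741 CPM in the 3 Ctrl libraries. Every Chaf1a cko library lay above every Ctrl library, and the ratio of means was 1.10. The large subunit summed to 1232 ± 15.3 CPM in Chaf1a cko and 1126 ± 7.83 CPM in Ctrl, and the small subunit to 674 ± 23.7 CPM in Chaf1a cko and 605 ± 14.8 CPM in Ctrl, without overlap in either. Genes with a bacterial counterpart summed to 1102 ± 6.27 CPM in Chaf1a cko and 1015 ± 12.2 CPM in Ctrl, and those specific to mitochondria to 789 ± 33.2 CPM in Chaf1a cko and 702 ± 12.9 CPM in Ctrl. In such bulk RNA, fewer cells of a type and less RNA per cell cannot be told apart.

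**Figure D2:**
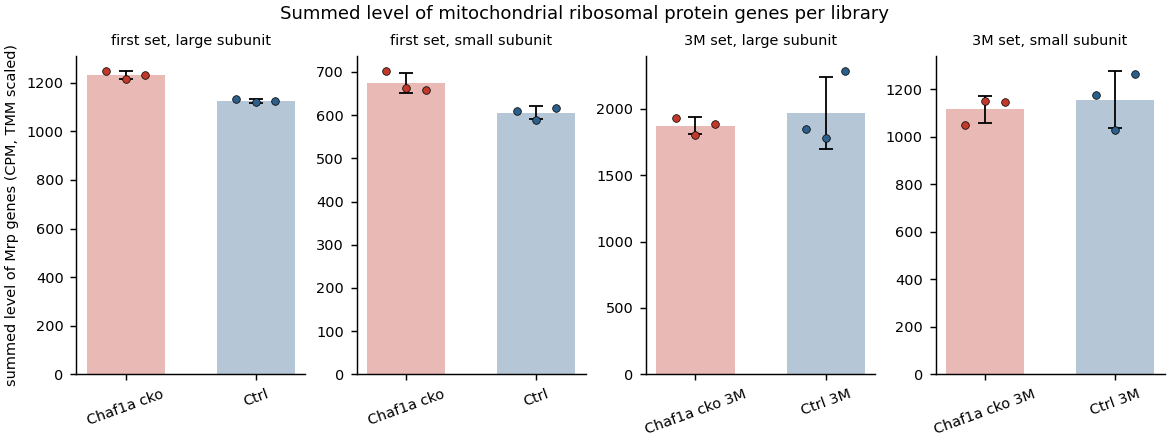
Summed level of the large and small subunit genes in each library, in CPM scaled by TMM factors; bars are means, whiskers SDs and points the 3 libraries of a group. In the first set every Chaf1a cko library lies above every Ctrl library for both subunits, and in the 3M set the groups overlap.

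Measured side by side, other RNA moved with the same groups of the first set. Chemoreceptor genes summed to 2971 to 3005 CPM in Chaf1a cko and 3129 to 3380 CPM in Ctrl. All 10 fibroblast markers together were at 3166 to 3203 CPM in Chaf1a cko and 3780 to 3880 CPM in Ctrl, and 5 of the 10 fell past the threshold. The 8 mural markers summed to 1517 to 1524 CPM in Chaf1a cko and 1201 to 1276 CPM in Ctrl. Of these 8, 1 rose and 1 fell past the threshold, and their median log2 fold change was 0.04. The 6 erythroid markers summed to 2281 to 2306 CPM in Chaf1a cko and 1638 to 2209 CPM in Ctrl, and none of them passed. Of the 12 cardiomyocyte markers 2 rose and 5 fell. None of these lists had a member at 0 in all 6 libraries. The part of these differences, and of the higher Y-linked sum in Chaf1a cko, in the result for the ribosomal protein genes was not tested.

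The difference was small in most of the 78 genes. A fitted log2 fold change (Chaf1a cko over Ctrl) above 0 was found for 64 of them (82.1%), against 49.1% of the 22965 genes tested and 54% of the 13472 genes above the chemoreceptor level. The median was 0.13, against -0.01 over all genes tested and 0.02 over those above the chemoreceptor level. By subunit the medians were 0.14 in the large subunit, with 41 of 49 above 0, and 0.12 in the small subunit, with 23 of 29 above 0. They were 0.12 for genes with a bacterial counterpart (36 of 47 above 0) and 0.19 for those specific to mitochondria (27 of 30). Values ran from -0.16 to 0.89, and the median 95% interval reached 0.37 to either side, so most single genes could not be told from no change. Members at lower Ctrl levels tended to have higher log2 fold changes (Spearman correlation -0.395), though the Ctrl level enters both values. For 70 of the 78 the interval lay within a 1 log2 unit change in either direction. The exceptions were Mrpl14, Mrpl22, Mrpl35, Mrpl36, Mrps16, Mrps18c, Mrps25 and Mrps33. Without the third Chaf1a cko library, 55 genes had a log2 fold change above 0 and the ratio of summed levels was 1.11.

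Of the 78 genes 1 rose past the threshold of an adjusted p of 0.05 (edgeR's quasi-likelihood test, Benjamini-Hochberg over all genes) and none fell. Of all genes tested 1.18% were called, 0.74% higher and 0.435% lower. At an unadjusted p under 0.05 the counts were 7 higher (5.63% of all genes tested) and 0 lower (4.5%). DESeq2's Wald test also called 1, but it gave no adjusted p for some members, among them Mrps16, Mrpl36 and Mrps18c. Libraries of the groups did not overlap for 11 members that were higher in Chaf1a cko (14.1%, against 8.33% of all genes tested and 11.3% of those above the chemoreceptor level). They did so for 0 members that were lower (against 7.85% and 8.03%).

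The gene that rose was Mrpl35, which encodes the counterpart of a small bacterial large subunit protein and lies at chr6:71812997-71826969 on the minus strand (GRCm38). Mrpl35 was at 20.8, 20.6 and 23.3 CPM in Chaf1a cko and 14.9, 9.52 and 10.7 CPM in Ctrl. All Chaf1a cko libraries lay above all Ctrl libraries, and the first Ctrl library stood nearest to them. Its log2 fold change was 0.89 with an SE of 0.19 (95% interval 0.48 to 1.29, edgeR adjusted p = 0.0264). Leaving out any 1 library other than the first of Ctrl ended the call, with edgeR adjusted p from 0.0940 (without the second Chaf1a cko library) to 0.162 (without the third Chaf1a cko library), while without the first Ctrl library it was 0.0107. Without the first Chaf1a cko, second Ctrl or the third Ctrl library the adjusted p was 0.0994, 0.154 and 0.138 in that order. Per kilobase, the Ctrl level of Mrpl35 was among the lowest of the large subunit, and the part of background in it was not tested.

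Further large subunit genes had the next small p, and none of them passed the adjusted threshold. Mrpl22, whose bacterial counterpart lines the tunnel through which new protein leaves the ribosome, was at 15.9, 14.2 and 13.5 CPM in Chaf1a cko and 12.04, 7.81 and 8.79 CPM in Ctrl. Its log2 fold change was 0.61 (SE 0.21, edgeR adjusted p = 0.275). Mrpl55, specific to mitochondria, was at 16.5, 12.6 and 13.3 CPM in Chaf1a cko and 9.30, 10.3 and 9.12 CPM in Ctrl, a log2 fold change of 0.56 (SE 0.20, edgeR adjusted p = 0.304). In both genes every Chaf1a cko library was above every Ctrl library. Mrpl36, the counterpart of a very small bacterial protein, was at 6.56, 8.87 and 5.57 CPM in Chaf1a cko and 3.48, 4.81 and 4.54 CPM in Ctrl, levels near those of the chemoreceptor genes. Mrpl33 was at 14.8, 10.5 and 13.5 CPM in Chaf1a cko and 8.97, 8.12 and 10.2 CPM in Ctrl. Log2 fold changes were 0.71 for Mrpl36 and 0.50 for Mrpl33 (SE 0.29 and 0.22, edgeR adjusted p = 0.397 and 0.432), and the closest libraries of the 2 groups were nearly level in Mrpl33. Mrpl27 had a log2 fold change of 0.47 (edgeR adjusted p = 0.513), with overlapping groups, and without the first Chaf1a cko library it was 0.19.

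In the small subunit, Mrps16 and Mrps22 had the smallest p. Mrps16, a counterpart of a bacterial protein whose defect in humans impairs mitochondrial translation, was at 9.62, 9.30 and 10.8 CPM in Chaf1a cko and 6.56, 6.05 and 7.04 CPM in Ctrl. The groups were well apart and close within themselves, at a log2 fold change of 0.59 (SE 0.23, edgeR adjusted p = 0.347). Mrps22, specific to mitochondria and linked to cardiomyopathy in humans, was at 32.7, 26.9 and 28.5 CPM in Chaf1a cko and 25.3, 21.99 and 23.0 CPM in Ctrl. Its log2 fold change was 0.33 (SE 0.14, edgeR adjusted p = 0.443). The other members without overlap were Mrpl46, Mrpl51, Mrps11 and Mrps26, at log2 fold changes of 0.31, 0.22, 0.46 and 0.27, of which Mrps11 and Mrpl46 are the opposed neighbours described above.

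On the lower side, the smallest p belonged to Mrpl43 (log2 fold change -0.12), Mrps17 (-0.15), Mrpl30 (-0.10) and Mrpl44 (-0.16), all with overlapping groups. Mrpl44, a ribonuclease-like protein whose defect causes cardiomyopathy in humans, was at 8.78, 11.5 and 10.9 CPM in Chaf1a cko and 8.63, 15.2 and 10.9 CPM in Ctrl. A single Ctrl library was high, and without it the fold change was on the positive side, at 0.08. The Mrps18 genes are 3 paralogs of one bacterial protein. Mrps18a was at 24.4, 19.9 and 20.9 CPM in Chaf1a cko and 13.4, 26.0 and 20.4 CPM in Ctrl. Mrps18b was at 7.10, 9.72 and 14.1 CPM in Chaf1a cko and 11.5, 12.6 and 10.5 CPM in Ctrl, and Mrps18c at 10.9, 6.91 and 6.17 CPM in Chaf1a cko and 8.30, 3.104 and 5.29 CPM in Ctrl. The groups overlapped for all 3, at log2 fold changes of 0.12 for Mrps18a, -0.16 for Mrps18b and 0.53 for Mrps18c, the last running from 0.24 (without the second Ctrl library) to 0.92 (without the first Ctrl library). Mrps36 had a log2 fold change of 0.15.

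**Figure D3:**
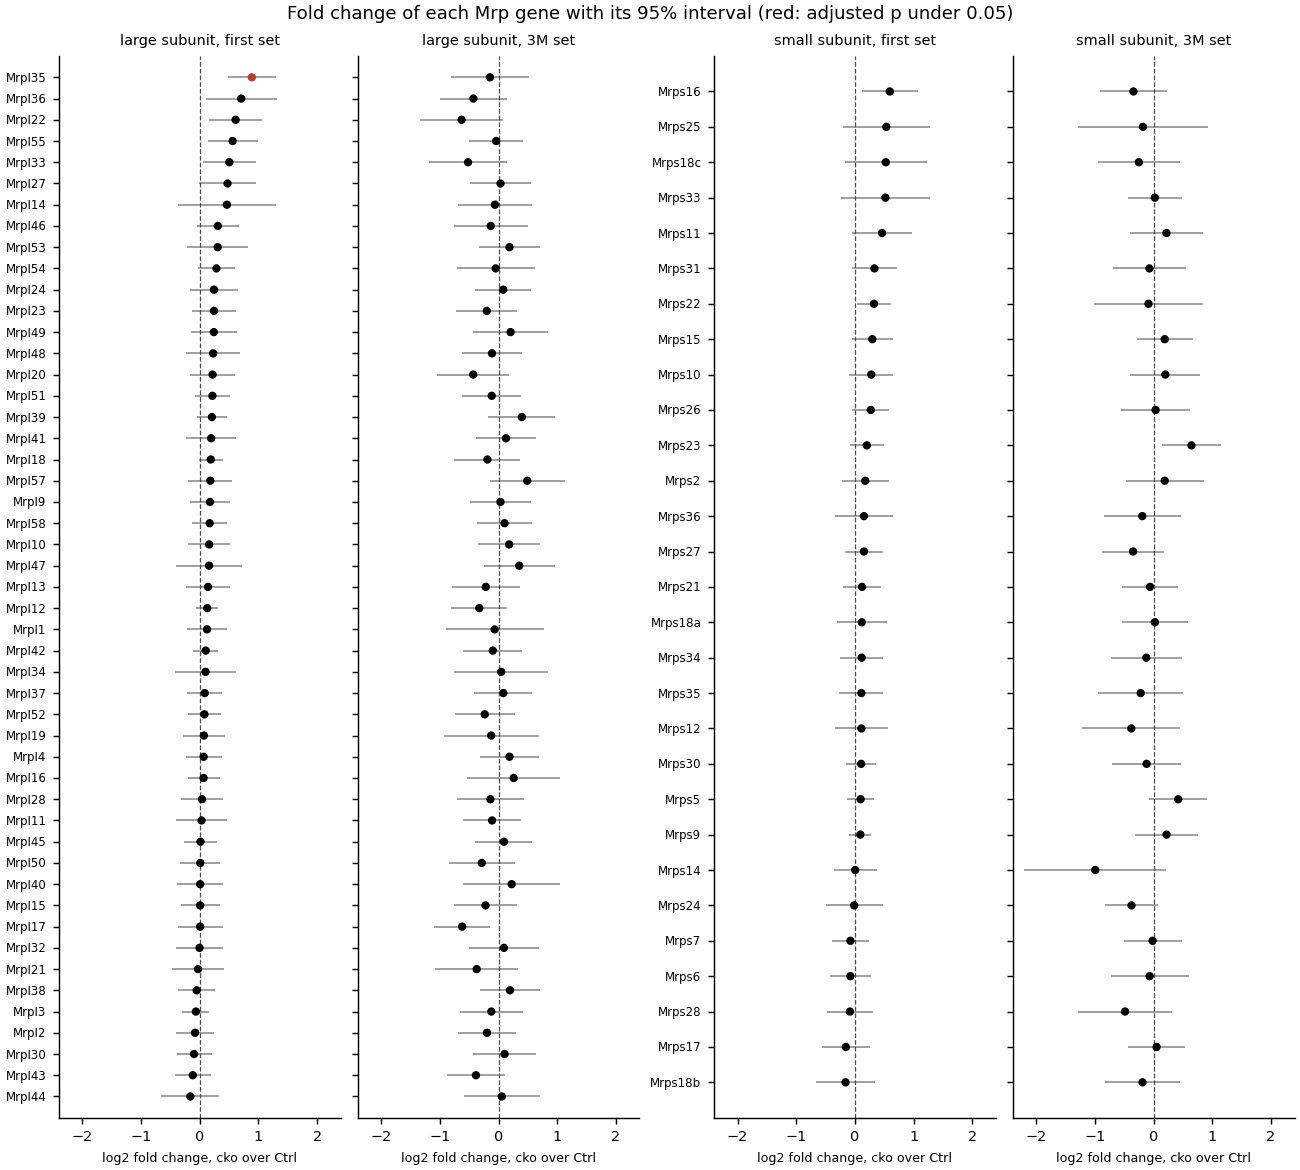
Log2 fold change, Chaf1a cko over Ctrl, of each large subunit gene (left pair of panels) and small subunit gene (right pair) in the first set and the 3M set, ordered by the first set; bars are 95% intervals. Points of the first set lie mostly right of 0, with Mrpl35 the only red point, and those of the 3M set lie on both sides with wider bars.

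In the 3M set the same genes did not differ between the genotypes as a group beyond the spread of the Ctrl 3M libraries. Their summed level was 2982, 2953 and 3029 CPM in Chaf1a cko 3M and 3024, 2805 and 3546 CPM in Ctrl 3M. The Chaf1a cko 3M libraries lay close together, and the Ctrl 3M libraries lay on both sides of them with the third far above. The ratio of means was 0.956, and without the third Ctrl 3M library, the one with the high Rn45s share, it was 1.03. The large subunit summed to 1873 ± 66.3 CPM in Chaf1a cko 3M and 1969 ± 273 CPM in Ctrl 3M, and the small subunit to 1115 ± 57.7 CPM in Chaf1a cko 3M and 1156 ± 119 CPM in Ctrl 3M. The 9 macrophage markers summed to 252 to 307 CPM in Chaf1a cko 3M and 428 to 480 CPM in Ctrl 3M. The 5 epicardial markers summed to 14.7 to 27.1 CPM in Chaf1a cko 3M and 55.5 to 121 CPM in Ctrl 3M, with Upk3b and Msln at 0 in all 6 libraries. The part of these markers, and of the higher cardiomyocyte marker sum and lower Y-linked sum in Chaf1a cko 3M, in the values of the ribosomal protein genes was not tested.

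Fitted log2 fold changes (Chaf1a cko 3M over Ctrl 3M) were above 0 for 32 of the 78 genes (41%, against 48% of the 13925 genes tested), with a median of -0.07 against -0.02 over all genes tested. Without the third Ctrl 3M library the count was 41 and the median 0.03, so the side on which the median lies rests on that library. The median was -0.07 in the large subunit (21 of 49 above 0) and -0.07 in the small subunit (11 of 29 above 0). None of the 78 was called, against 0.0144% of all genes tested (0.00718% in each direction), and DESeq2's Wald test called 0 as well. At an unadjusted p under 0.05, 1 was higher (3.2% of all genes tested) and 1 lower (3.73%). Groups did not overlap for 5 members that were higher in Chaf1a cko 3M (6.41%, against 7.21% of all genes tested) and 6 that were lower (7.69%, against 6.89%), shares close to those of all genes. The median 95% interval reached 0.57 to either side, and 63 of the 78 intervals lay within 1 log2 unit of 0.

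Mrps23, a small subunit protein specific to mitochondria, was at 84.5, 133.02 and 110 CPM in Chaf1a cko 3M and 59.9, 75.3 and 74.3 CPM in Ctrl 3M. The groups did not overlap, but the Chaf1a cko 3M libraries were spread widely, and the log2 fold change of 0.64 (SE 0.22) had an edgeR adjusted p of 0.645. Mrpl17, a large subunit protein with a bacterial counterpart, was at 31.0, 28.6 and 32.5 CPM in Chaf1a cko 3M and 53.1, 40.0 and 48.8 CPM in Ctrl 3M. All Chaf1a cko 3M libraries were lower, at a log2 fold change of -0.62 (SE 0.21, edgeR adjusted p = 0.638). In the first set Mrpl17 had a log2 fold change of 0.01.

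Mrps24, the counterpart of a bacterial protein at the mRNA entry of the small subunit, was at 52.5, 40.8 and 47.8 CPM in Chaf1a cko 3M and 57.6, 61.8 and 64.0 CPM in Ctrl 3M. Mrps5 was at 65.2, 77.9 and 71.2 CPM in Chaf1a cko 3M and 52.7, 42.8 and 65.1 CPM in Ctrl 3M. Groups did not overlap in either gene, though the lowest Chaf1a cko 3M and the highest Ctrl 3M library of Mrps5 were nearly level, and log2 fold changes were -0.38 and 0.42 (edgeR adjusted p = 0.754 for both). Other members without overlap were Mrpl39 (0.40), Mrpl57 (0.49) and Mrps10 (0.20) on the higher side. On the lower side they were Mrpl22 (-0.63), Mrpl36 (-0.43), Mrpl43 (-0.39) and Mrps27 (-0.35). Mrpl47 and Mrps9, with overlapping groups, had log2 fold changes of 0.35 and 0.22.

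Mrps14, a bacterial-type small subunit protein whose defect was reported with cardiomyopathy in humans, had the lowest log2 fold change of the set, -0.996 (SE 0.51, edgeR adjusted p = 0.755). It was at 50.2, 43.3 and 37.1 CPM in Chaf1a cko 3M and 163, 40.6 and 57.1 CPM in Ctrl 3M. The first Ctrl 3M library alone was high, and without it the log2 fold change was -0.17. Mrpl33 was at 55.2, 46.8 and 44.2 CPM in Chaf1a cko 3M and 67.5, 44.2 and 98.1 CPM in Ctrl 3M, with overlapping groups and a log2 fold change of -0.52. Without the third Ctrl 3M library it was -0.20. Mrps25 had the widest spread in Chaf1a cko 3M, at 26.9, 102 and 106 CPM, against 79.8, 91.3 and 95.8 CPM in Ctrl 3M. The Mrps18 paralogs had log2 fold changes of 0.02 for Mrps18a, -0.19 for Mrps18b and -0.25 for Mrps18c, and their groups overlapped.

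**Figure D4:**
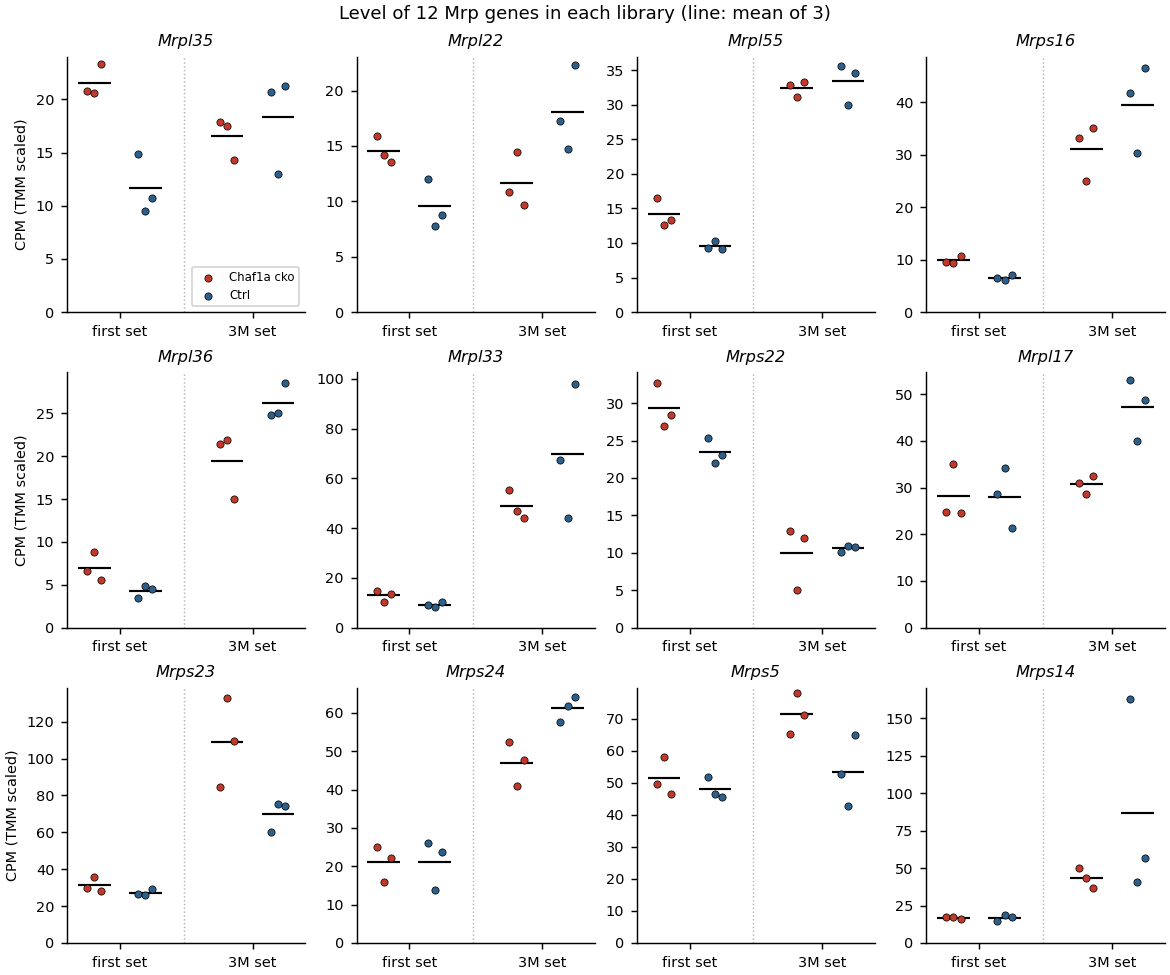
Level in CPM (TMM scaled) of 12 mitochondrial ribosomal protein genes in each library, Chaf1a cko in red and Ctrl in blue, the first set left and the 3M set right of the dotted line; horizontal lines are means of 3 libraries. Mrpl35 lies at 20.6 to 23.3 CPM in Chaf1a cko and 9.52 to 14.9 CPM in Ctrl and overlaps in the 3M set, and the first Ctrl 3M library of Mrps14 stands alone at 163 CPM.

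Whether the effect of genotype differed between the sets was tested by the interaction of set and genotype over all 12 libraries, given as the 3M effect minus the first set's. The sets also differ in Xist, in counts of chemoreceptor genes and in cardiomyocyte marker sums, as given above. The part of these in the differences of effect was not tested. None of the 78 genes passed the adjusted threshold, nor with DESeq2's Wald test, against 0.0658% of 22803 genes tested by edgeR. At an unadjusted edgeR p under 0.05 there were 6 (7.69%), against 9.47% of all genes tested. All 6 were negative, and they are the 6 members with the smallest p in the first set, where each was higher. Their common direction is thus no separate result. The share of negative differences among all genes was not counted. Mrpl22 had the smallest p, at a difference of -1.20 (SE 0.35, edgeR adjusted p = 0.395), and Mrpl22 was at 10.9, 14.4 and 9.68 CPM in Chaf1a cko 3M and 17.3, 14.7 and 22.3 CPM in Ctrl 3M. Mrps16 followed at -0.90 (SE 0.28) and Mrpl36 at -1.10 (SE 0.35), both with an edgeR adjusted p of 0.399, then Mrpl35 at -0.99 (SE 0.34, edgeR adjusted p = 0.425). Mrpl33 and Mrpl55 were at -0.98 and -0.56. Mrpl36 was at 21.5, 21.9 and 14.96 CPM in Chaf1a cko 3M and 24.9, 25.1 and 28.5 CPM in Ctrl 3M. Mrpl35, the gene called in the first set, was at 17.9, 17.5 and 14.3 CPM in Chaf1a cko 3M and 20.7, 13.03 and 21.3 CPM in Ctrl 3M, with overlapping groups and a log2 fold change of -0.15.

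Set side by side, 27 members had a log2 fold change above 0 in both sets, 37 above 0 in the first set and below it in the 3M set, 5 the other way round, and 9 below 0 in both. No member had groups without overlap in the same direction in both sets, against 1.19% of the 13856 genes tested in both. Mrpl22 and Mrpl36 (2.56% of the members) had them in opposite directions, against 1.36% of those genes, and 0.83% of those genes were, like both members, higher in the first set and lower in the 3M set. Of the 11 members higher without overlap in the first set, 9 hold at least 1 of the 3 promoter motifs, as do 6 of the 6 that were lower and 3 of the 5 that were higher without overlap in the 3M set. The share over all 69 members with a promoter was 52.2%. These counts were made after the values were seen and describe the members only.

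**Figure D5:**
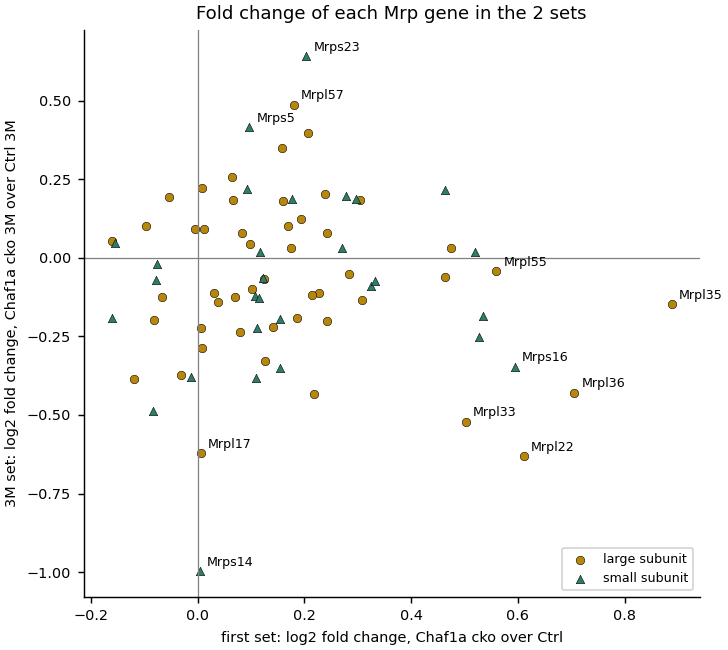
Log2 fold change of each of the 78 genes in the first set (x axis, Chaf1a cko over Ctrl) and the 3M set (y axis, Chaf1a cko 3M over Ctrl 3M); circles are large and triangles small subunit genes. Most points lie right of 0 on the x axis and on both sides of 0 on the y axis, and Mrpl22, Mrpl36, Mrpl33 and Mrps16 lie right of and below 0.

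Sequence shared with neighbours bears on what the counts can hold, as the sources used here do not state whether counting used strand. Exons of 26 members overlap those of another gene, in 22 of them on the opposite strand and in 5 on the same strand. The overlap covers 100% of the exons of Mrpl53 (with Gm42688), 59.1% of Mrps18b (Gm16279), 58.2% of Mrps25 (Nr2c2), 39.2% of Mrpl19 (Gcfc2), 38.2% of Mrpl24 (Rrnad1) and 36.1% of Mrps6 (Gm49711). A smaller share, up to 27.5%, is covered in Mrpl9, Mrpl10, Mrpl12, Mrpl13, Mrpl18, Mrpl21, Mrpl27, Mrpl33, Mrpl36, Mrpl43, Mrpl47, Mrpl48, Mrpl49, Mrpl51, Mrpl58, Mrps7, Mrps18c, Mrps26, Mrps27 and Mrps30. Values of these genes may hold reads of the neighbour. Mrpl35, Mrpl22, Mrpl55, Mrpl17, Mrps16, Mrps22 and Mrps23 are not among them.

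The rest of the mitochondrial translation machinery is given here from lists of its known members. Of the 5 ribosomal proteins without an Mrp symbol, 4 had a log2 fold change above 0 in the first set (median 0.07) and 1 rose, Ptcd3, a pentatricopeptide repeat protein of the small subunit. Ptcd3 was at 38.0, 40.5 and 42.2 CPM in Chaf1a cko and 22.5, 26.9 and 29.4 CPM in Ctrl. The groups were far apart, at a log2 fold change of 0.61 (SE 0.13, edgeR adjusted p = 0.0260). Of 15 translation factors, 13 were above 0 (median 0.13) and 1 rose, Tufm, the elongation factor that brings aminoacyl-tRNA to the ribosome. Tufm was at 96.2, 98.8 and 91.3 CPM in Chaf1a cko and 76.3, 66.7 and 80.0 CPM in Ctrl, at a log2 fold change of 0.36 (SE 0.09, edgeR adjusted p = 0.0477). Of the 3 genes called in the 8 lists (Ptcd3, Tufm and Myc, below), 0 were called when any 1 library other than the third of Ctrl was left out, and 2 without that library. DESeq2's Wald test called 5.

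Of the 20 mitochondrial aminoacyl-tRNA synthetases and related enzymes, 13 were above 0 in the first set (median 0.12) and none passed the test. Among 22 import proteins 18 were above 0 (median 0.15) and none passed. Hspa9, the matrix chaperone that pulls proteins in, was at 709, 723 and 708 CPM in Chaf1a cko and 652, 657 and 639 CPM in Ctrl (log2 fold change 0.14, edgeR adjusted p = 0.103). The 26 factors of ribosome assembly and rRNA modification had 11 above 0 (median -0.03) and none passed, with Mettl15 at -0.55 and Noa1 at 0.30. The 10 genes of mitochondrial transcription and genome maintenance had a median of 0.03 and the 9 proteases and chaperones of 0.08, and none of either passed.

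Regulators of mitochondrial biogenesis had a median of 0.03 over 9 genes in the first set, and Myc, a growth-promoting transcription factor, fell. Myc was at 62.2, 66.7 and 54.3 CPM in Chaf1a cko and 91.9, 87.2 and 71.7 CPM in Ctrl, a log2 fold change of -0.45 (SE 0.10, edgeR adjusted p = 0.0398). The groups were apart, with the third Ctrl library nearest. In the 3M set none of the 116 genes tested in these 8 lists passed. Medians there were -0.10 for the ribosomal proteins without an Mrp symbol, -0.01 for assembly, 0.15 for translation factors, 0.20 for synthetases, 0.18 for transcription, -0.28 for biogenesis regulators, -0.02 for import and -0.09 for proteases and chaperones. Gabpa and Yy1, which encode factors whose motif letters were searched above, were at log2 fold changes of -0.66 and -0.41 with groups that did not overlap (edgeR adjusted p = 0.712 for both). Of all genes tested in the 3M set, 6.89% had groups without overlap on the lower side. Values of Nrf1, and first-set values of Gabpa and Yy1, are not given here. Any tie of these genes to the motif counts was not tested. Polrmt, the mitochondrial RNA polymerase, was at 52.6, 45.9 and 61.6 CPM in Chaf1a cko 3M and 33.7, 31.5 and 34.4 CPM in Ctrl 3M (log2 fold change 0.68, edgeR adjusted p = 0.607).

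Genes that share a start region with a member were compared with it in the first set. Mrpl51 and its neighbour Ncapd2, a condensin subunit, start 100 bases apart. Ncapd2 rose to 95.7 ± 2.79 CPM in Chaf1a cko, against 73.3 ± 1.58 CPM in Ctrl, a log2 fold change of 0.38 (edgeR adjusted p = 0.016), while Mrpl51 was at 29.1 ± 1.85 CPM in Chaf1a cko and 25.0 ± 2.45 CPM in Ctrl, a log2 fold change of 0.22 (edgeR adjusted p = 0.674). Mrpl40 starts 175 bases from Hira, which encodes another histone chaperone, and both were near 0, at 0.01 for Mrpl40 and 0.12 for Hira. Mrps12 starts 172 bases from Sars2, a mitochondrial synthetase, and they were at 0.11 for Mrps12 and -0.58 for Sars2 (edgeR adjusted p = 0.930 and 0.425). Mrpl36 and Ndufs6, a subunit of respiratory complex I, start within 29 bases of each other, at 0.71 and 0.24 in the first set and at -0.43 and -0.38 in the 3M set. These 4 pairs were chosen after their values were seen.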

How the data were processed

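The authors deposited 2 tables of raw gene counts, each with 6 libraries. FastQC, Trimmomatic, HISAT2 and the build mm10 are named in the submitters' processing notes, and per the labels' protocols the libraries were stranded and depleted of ribosomal RNA. How reads were counted (program, annotation, strandedness) was not stated in the sources used here. Total counts per library ran from 10569325 to 20896673.

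With edgeR 4.0.16 and limma 3.58.1 (R 4.3.3) a separate fit was made for each table: filterByExpr (minimum count 10, minimum total 15), TMM, robust glmQLFit and glmQLFTest, two-sided, Benjamini-Hochberg over all genes tested, threshold 0.05. All 78 members passed the filter in both tables. The interaction of set and genotype was fitted over all 12 libraries. CPM values are scaled by TMM factors, except that shares of counts, Xist and the Y-linked sum use the library total. SEs and 95% intervals cover both counting error and library spread. The fits were tested on simulated data. Gene models came from GENCODE basic annotation of GRCm38 and promoters from RefSeq, GRCm38.p6. Of 16 translation factors listed, Mtrfr was matched to no row and is not analysed here. A result for 1 further gene is not reported here.

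The members and lists were chosen with earlier results of these data known. Named members were the 8 higher and 8 lower with the smallest p in each table, of which fewer were used (first set 8 and 4, 3M set 6 and 6). Added to these were, per subunit, the 4 highest and 2 lowest levels per kilobase in the controls, the Mrps18 paralogs, the 4 smallest p of the interaction and members with exon overlaps. From each other list up to 4 genes with the smallest p were named, and Chaf1a. The alternatives tried were scaling by DESeq2 size factors or by library size, DESeq2 1.42.0 with its Wald test, other filters, a replicate block and leaving out each library.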

Additional observations from a re-analysis of the deposited data

Results flagged for a closer look

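Mrpl22 and Mrpl36 stood out because every Chaf1a cko library lay above every Ctrl library in the first set while every Chaf1a cko 3M library lay below every Ctrl 3M library in the 3M set. Of the 13856 genes tested in both sets 0.83% met the same condition, against 2.56% of the members. The effect in the 3M set minus that in the first set was -1.20 (log2, SE 0.35) for Mrpl22, with an unadjusted p of 0.00582 and an edgeR adjusted p of 0.395. For Mrpl36 it was -1.10 (SE 0.35), with an unadjusted p of 0.00953 and an edgeR adjusted p of 0.399. Neither passed the adjusted threshold. The genes were picked for this opposed separation, so these differences and the ranges that follow are no separate result. Leaving out each library in turn gave differences of -1.39 to -1.03 for Mrpl22 (edgeR adjusted p 0.187 to 0.6996) and of -1.24 to -0.89 for Mrpl36 (edgeR adjusted p 0.287 to 0.711).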

How the results depend on the processing

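The count of mitochondrial ribosomal protein genes called in the first set (1) was the same under DESeq2 size factors, library size alone, DESeq2's Wald test, both other filters and the replicate block, and leaving out 1 library gave 0 to 1. In the 3M set and for the difference between sets it was 0 under every alternative run. Genes of the other 8 lists called in the first set numbered 3, against 5 with DESeq2's Wald test, 1 with no low-count filter and 0 to 2 when 1 library was left out. Members with a log2 fold change above 0 in the first set numbered 64, 58 with library size alone, 50 of the 70 left by a filter of 10 CPM in 3 libraries, and 55 to 65 when 1 library was left out. In the 3M set they numbered 32, and 28 to 41 when 1 library was left out, an alternative chosen after seeing the data, as was leaving out libraries for the summed level, whose ratio then ran from 1.09 to 1.11 in the first set and from 0.910 to 1.03 in the 3M set. No scaling moved the median of all genes by over 0.1.

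Log2 fold changes near 0 turned their sign when 1 library was left out: Chaf1a ran from -0.13 to 0.27 in the first set and from -0.16 to 0.96 in the 3M set, Mrps18a from -0.095 to 0.35 and from -0.15 to 0.15. In the first set Mrpl30 ran from -0.25 to 0.0014, Mrpl44 from -0.33 to 0.085 and Mrps18b from -0.45 to 0.042, and in the 3M set Mrps18c ran from -0.45 to 0.10. The cause was not tested.

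Replicate numbers did not pair the libraries: deviations of same-numbered libraries correlated at -0.01 to 0.03 in the first set and 0.02 to 0.05 in the 3M set, though in the 3M set each library correlated best with its own number. With the number as a block, calls among the members were 1 in the first set, 0 in the 3M set and 0 for the difference, and calls in the other lists were 2 and 0. Members near the chemoreceptor level in the first set, such as Mrpl14 with a lowest count of 41, rest on few counts and may hold background.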
